A study of Mus musculus with 5 samples.

Results

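The immunoproteasome and class I peptide-loading genes are 10 genes whose products cut proteins into peptides, carry the peptides into the endoplasmic reticulum and place them on MHC class I. They were taken by name (Psmb8, Psmb9, Psmb10, Psme1, Psme2, Tap1, Tap2, Tapbp, Tapbpl and Erap1) and joined by Ensembl identifier to count files that list 46983 genes. All 10 were found, and all 10 passed the filter on low counts that left 14580 genes to test. RNA was sequenced from cells that the labels call tumour-associated macrophages, sorted as CD45+ CD11b+ Ly6G- F4/80+ cells from orthotopic EO771 mammary tumours, a mouse breast cancer line, in C57/BL6 mice. In 2 libraries, Treg cells, the regulatory T cells that restrain immune responses, had been ablated by diphtheria toxin, given in 2 doses of 50 µg/kg, with cells sorted on day 4. The 3 control libraries came from tumours left untreated, without toxin, so an effect of the toxin and one of Treg loss cannot be told apart. The labels name no allele that makes Treg cells sensitive to the toxin, and it is not stated that replicates were separate animals; p-values thus describe the spread among these 5 libraries, which may be technical.

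The proteasome is a barrel whose standard catalytic subunits are encoded by Psmb5, Psmb6 and Psmb7. Cells exposed to interferon, and many immune cells at rest, build in Psmb8, Psmb9 and Psmb10 in their place, and cap the barrel with the activator PA28, made from Psme1 and Psme2. TAP1 and TAP2 form the transporter that moves peptides into the endoplasmic reticulum, ERAP1 trims them there, and tapasin (Tapbp) and its relative TAPBPR (Tapbpl) help to choose and load those that fit MHC class I. Macrophages use this route to display peptides to CD8 T cells.

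Library totals ran from 13122668 to 20156835 counts. Levels are given as CPM, counts per 1000000 after TMM scaling, and a count of 3 corresponds to 0.150 to 0.226 CPM, a floor that covers counting error only. The sort gate was only partly visible in the RNA. Ptprc, which encodes CD45, lay between 22.1 and 33.0 CPM, Itgam, which encodes CD11b, between 12.2 and 19.01, and Adgre1, which encodes F4/80, between 5.73 and 9.87 CPM, while the collagen gene Col3a1 reached 7467 to 9556 CPM. Changes are therefore given for these libraries and not for a cell type, and in such bulk samples fewer cells of a type and less RNA per cell cannot be told apart.

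After Treg ablation 5 of the 10 genes rose, 0 fell and 5 did not pass, at an adjusted p under 0.05 in edgeR's quasi-likelihood test with Benjamini-Hochberg adjustment over all genes tested. The 5 that rose were Psmb9, Psmb8, Psme2, Tap2 and Tapbpl, 1 or more from each step except the trimming by ERAP1. Of all genes tested, 13.5% were higher and 12.3% lower by the same rule. The median log2 fold change of the 10 genes was 0.24, against -0.01 over all genes tested, and their range was -0.03 to 0.74. In 6 of the 10, Tap1 being the added one, both Treg-ablated libraries lay above all 3 controls, as they did in 26.9% of all genes tested; 25.6% of genes lay below in the same way, among them 0 of the 10. The changes were small. Tested against a fold of 1.5, 0 of the 10 passed, as against 0.672% of all genes that passed as higher. The count of 5 became 1, Psmb9, without Treg-ablated replicate 1 and again without control replicate 2, where 9.32% and 5.62% of all genes passed as higher.

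**Figure D1:**
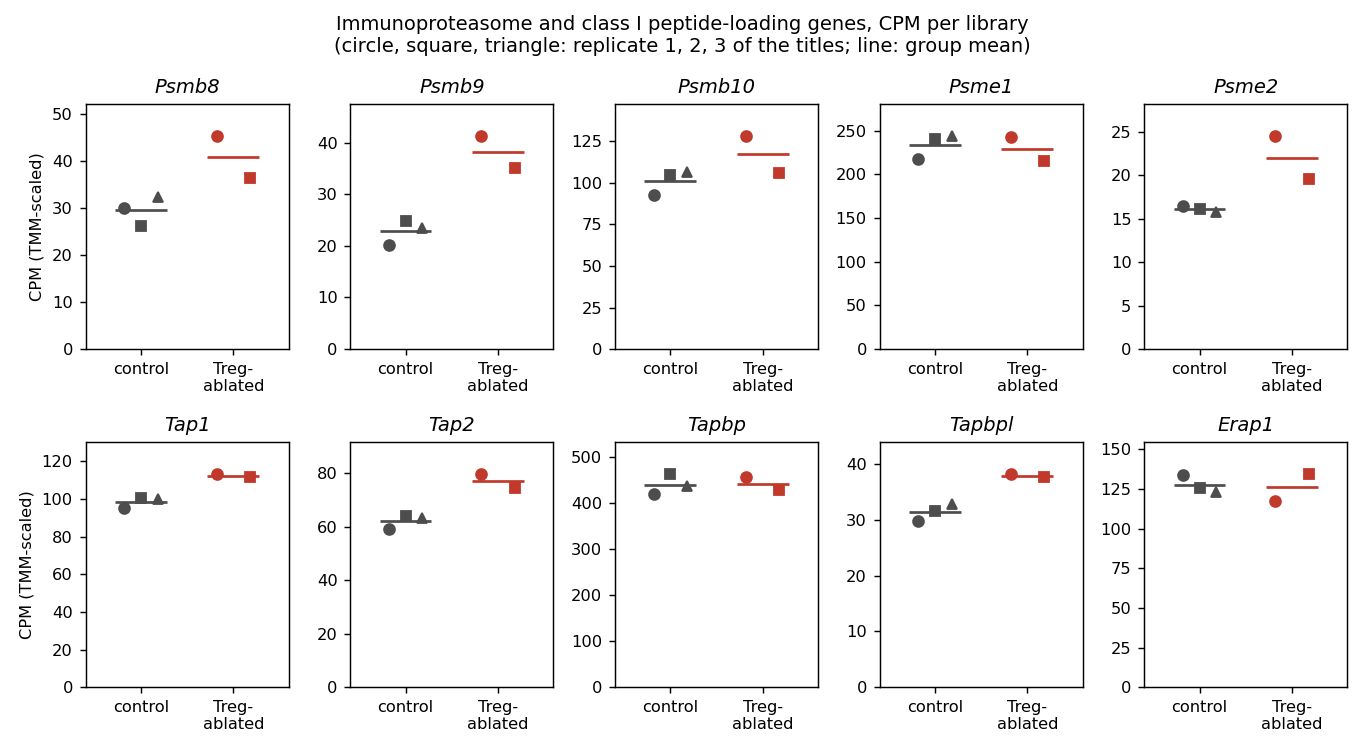
CPM (TMM-scaled, linear axis from 0) of the 10 genes in each library, with 3 control libraries in grey, 2 Treg-ablated libraries in red and lines at the group means. Psmb9 has the largest fold of the 10, 1.67, from 20.1 to 24.8 CPM in controls and from 35.1 to 41.4 after ablation, while Psme1, Tapbp and Erap1 overlap.

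Among the catalytic immunosubunits, Psmb9 and Psmb8 rose and Psmb10 did not pass. Psmb9 (ENSMUSG00000096727, chromosome 17, 34181988 to 34187764, GRCm38, minus strand), which takes the place of Psmb6, had 20.1, 24.8 and 23.5 CPM in control replicates 1, 2 and 3, and 41.4 and 35.1 CPM in Treg-ablated replicates 1 and 2. The groups were well apart, with the lowest Treg-ablated library above the highest control. The log2 fold change was 0.74 (SE 0.11, adjusted p = 0.00135), or 1.67-fold. Psmb9 was the only 1 of the 10 that kept its call whichever library was left out, with log2 fold changes of 0.62 to 0.86.

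Psmb8 (ENSMUSG00000024338, chromosome 17, 34197721 to 34201454, plus strand) takes the place of Psmb5 and carries the chymotrypsin-like activity of the immunoproteasome. It had 30.1, 26.2 and 32.4 CPM in the controls against 45.4 and 36.3 CPM after ablation. The groups did not overlap, but the second Treg-ablated library stood only slightly above the third control. The log2 fold change of 0.47 (SE 0.11) had an adjusted p of 0.0138, which became 0.0952 without Treg-ablated replicate 1 (log2 fold change 0.30) and 0.0839 without control replicate 2 (0.39). Psmb10 (ENSMUSG00000031897, chromosome 8, 105935728 to 105938392, minus strand), the counterpart of Psmb7, had 92.8, 104.7 and 106.9 CPM in the controls and 128.5 and 106.0 CPM after ablation. Its groups overlapped, since the second Treg-ablated library lay among the controls. The log2 fold change was 0.21 (SE 0.09, adjusted p = 0.124), and the gene passed without Treg-ablated replicate 2 (log2 fold change 0.34, adjusted p = 0.0193) and with a correction for GC content (0.35, adjusted p = 0.0118). Without Treg-ablated replicate 1 the log2 fold change of Psmb10 was 0.06 (adjusted p = 0.694). In all 3 immunosubunit genes Treg-ablated replicate 1 was the higher of its pair.

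The 3 standard subunits had lower group means after ablation without passing. Psmb5 had 48.9, 56.2 and 57.4 CPM in the controls and 49.1 and 41.5 CPM after ablation, and Psmb6 had 135.3, 159.0 and 165.1 CPM against 144.2 and 127.4 CPM. Psmb7 had 164.1, 180.5 and 192.2 CPM against 168.8 and 156.5 CPM, so the groups overlapped for each of the 3. Psmb5, Psmb6 and Psmb7 had log2 fold changes of -0.26 (SE 0.10), -0.17 (SE 0.09) and -0.14 (SE 0.08), and adjusted p of 0.0742, 0.198 and 0.230 in the same edgeR fit. Psmb5 passed as lower without Treg-ablated replicate 1 (adjusted p = 0.0241), without control replicate 1 (adjusted p = 0.0395) and when every gene with 1 count in some library was kept (adjusted p = 0.0181), whereas its log2 fold change was -0.12 with the GC correction. Because each immunosubunit competes with 1 standard subunit for the same place in the barrel, the ratio of the 2 within a library was compared, which needs no scaling between libraries. Per kilobase of annotated exon, Psmb9 over Psmb6 was 0.0762, 0.0798 and 0.0727 in the controls and 0.147 and 0.141 after ablation. The ratio was tightly grouped within each condition, and its mean log2 was -3.71 in the controls and -2.80 after ablation, a 1.89-fold difference. Psmb8 over Psmb5 was 0.196, 0.149 and 0.1797 in the controls and 0.295 and 0.278 after ablation, a 1.65-fold difference. Psmb10 over Psmb7 went from 1.52, 1.56 and 1.499 to 2.05 and 1.82, a 1.26-fold difference that the GC correction raised from 0.34 to 0.62 on the log2 scale. In all 3 pairs both Treg-ablated libraries lay above every control, Psmb10 over Psmb7 included, although Psmb10 alone overlapped. Among single genes tested, 26.9% lay above in the same way, and no such share was computed for ratios of other gene pairs. An exact two-sided permutation test gave p = 0.1 for each pair and p = 0.1 adjusted over the 3 pairs, which is the smallest p that 2 against 3 libraries can give, so the design cannot reach the threshold. Levels between genes depend on the length used: with the longest coding transcript in place of all annotated exons, Psmb10 over Psmb7 was 0.492 to 0.513 in the controls, while the differences between groups are the same for any length. The second length comes from GENCODE M21, not from the annotation used for counting, and was chosen after seeing the data. Of the exon bases of Psmb7, 11.8% overlap Nek6 on the other strand, which had 1247 to 1943 counts.

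**Figure D2:**
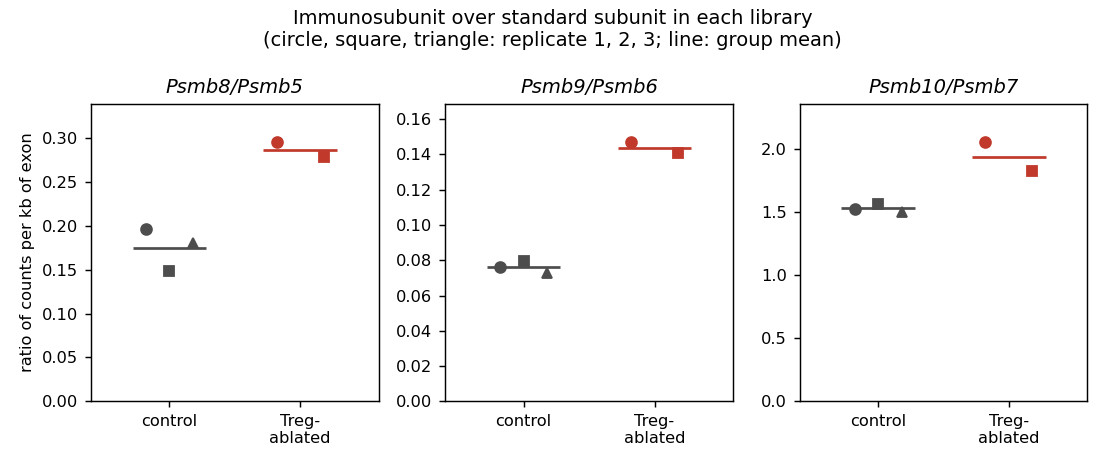
Ratio of counts per kilobase of exon (linear axis from 0) of each immunosubunit to the standard subunit it replaces, in 3 control and 2 Treg-ablated libraries, with lines at the group means. In each of the 3 panels both Treg-ablated libraries stand above all controls, with the largest fold, 1.89, for Psmb9/Psmb6, at 0.141 to 0.147 against 0.0727 to 0.0798. How often ratios of other gene pairs separate in this way was not computed.

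PA28 is built from both of its genes, but only Psme2 was called, and its counts are uncertain. Psme1 (ENSMUSG00000022216, chromosome 14, 55578123 to 55581529) had 217.1, 240.4 and 244.2 CPM in the controls and 243.2 and 214.9 CPM after ablation. The groups overlapped (log2 fold change -0.03, SE 0.08, adjusted p = 0.812). Psme2 (ENSMUSG00000079197, chromosome 14, 55587441 to 55591113) had 16.5, 16.1 and 15.7 CPM in the controls and 24.6 and 19.5 CPM after ablation. Its controls were nearly equal and both Treg-ablated libraries were higher; the log2 fold change was 0.46 (SE 0.11) and the adjusted p = 0.0146. The call ended without Treg-ablated replicate 1 (log2 fold change 0.28, adjusted p = 0.141) and without control replicate 2 (adjusted p = 0.0726).

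Psme2b (ENSMUSG00000078153, chromosome 11, 48945354 to 48946190), an intronless copy of Psme2, took 2191 to 3109 counts per library, while Psme2 itself took 226 to 390. The Psme2 transcript and Psme2b were identical at 789 of 794 aligned bases (99.4%), with 5 mismatches and 0 gaps. The mismatches, counted from the A of the start codon with the Psme2 base first, are C312T, A369G, C489T, C519T and C543T. Coding bases 457 to 576 of the transcript, the stretch of 120 bases with the most mismatches, show how little tells the genes apart; the sequences are from GENCODE M21 (GRCm38), and the 3 mismatched bases are in capitals.
Psme2: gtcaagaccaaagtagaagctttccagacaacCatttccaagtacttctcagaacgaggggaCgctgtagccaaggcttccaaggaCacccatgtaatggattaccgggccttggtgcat
Psme2b: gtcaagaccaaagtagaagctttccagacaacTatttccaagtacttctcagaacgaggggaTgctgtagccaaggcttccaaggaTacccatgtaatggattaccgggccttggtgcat
Of the 929 different windows of 125 bases, the read length, in the coding transcripts of Psme2, 33.8% occur without a mismatch in Psme2b. Psme2 received 10.03%, 9.38% and 8.37% of the counts of the pair in control replicates 1, 2 and 3, and 11.7% and 10.6% in Treg-ablated replicates 1 and 2. Psme2b alone had 147.6, 155.7 and 172.3 CPM in the controls and 185.3 and 165.3 CPM after ablation, with overlapping groups (log2 fold change 0.15, SE 0.08, adjusted p = 0.219). With the counts of both summed into 1 gene, a choice made after seeing the data, the log2 fold change was 0.18 (SE 0.08, adjusted p = 0.132), and Psme2 was no longer called. Which of the 2 genes the shared reads came from was not tested.

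**Figure D3:**
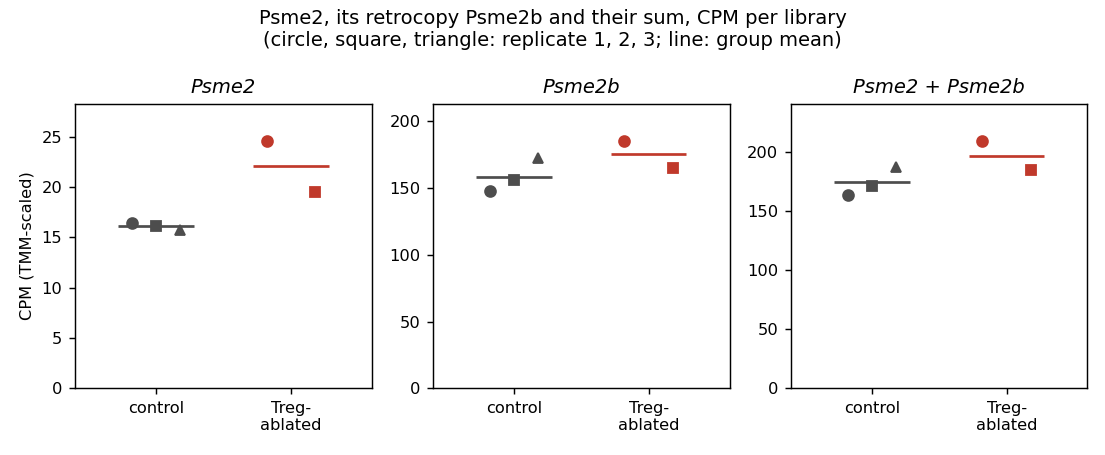
CPM (TMM-scaled, linear axes from 0) of Psme2, of its copy Psme2b and of their sum in 3 control and 2 Treg-ablated libraries, with lines at the group means. Psme2 shows separate groups at 15.7 to 24.6 CPM, whereas Psme2b, at 147.6 to 185.3 CPM, and the sum overlap between groups.

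Of the transporter genes Tap2 rose and Tap1 narrowly missed the threshold. Tap2 (ENSMUSG00000024339, chromosome 17, 34203527 to 34216321) had 59.1, 64.0 and 63.3 CPM in the controls and 79.7 and 74.4 CPM after ablation. Both groups were tight and separate. The log2 fold change was 0.31 (SE 0.07, adjusted p = 0.0117), with an adjusted p of 0.0639 without Treg-ablated replicate 1 and 0.0525 without control replicate 2. Tap1 (ENSMUSG00000037321, chromosome 17, 34187553 to 34197225) had 95.1, 100.6 and 100.1 CPM in the controls and 113.3 and 111.6 CPM after ablation. These groups, too, did not overlap, but the difference was smaller (log2 fold change 0.19, SE 0.07, adjusted p = 0.0542). Tap1 passed when libraries were scaled by library size alone (adjusted p = 0.0355), with a filter of 10 counts in every library (adjusted p = 0.0432) and with the correction for GC content (log2 fold change 0.33, adjusted p = 0.0048). It did not pass in DESeq2 (adjusted p = 0.13), with the filter on 1 count (0.145), with the replicate block (0.246) or with any 1 library left out (0.0858 to 0.169). The ratio of Tap2 to Tap1 per kilobase of exon was 0.900, 0.922 and 0.915 in the controls and 1.02 and 0.965 after ablation. With the longest coding transcript as the length it was 0.533 to 0.546 in the controls and 0.572 to 0.604 after ablation, so the level of one gene against the other depends on the length used.

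Of the chaperone genes of the loading step Tapbpl rose, and the more abundant Tapbp did not pass. Tapbp (ENSMUSG00000024308, chromosome 17, 33915899 to 33929288), for tapasin, which bridges TAP and MHC class I, had 420.5, 463.8 and 438.3 CPM in the controls and 456.3 and 429.9 CPM after ablation, with both Treg-ablated libraries inside the control range (log2 fold change 0.01, SE 0.07, adjusted p = 0.951). Tapbpl (ENSMUSG00000038213, chromosome 6, 125223933 to 125231860), for TAPBPR, which edits peptides on class I outside the TAP complex, had 29.7, 31.5 and 32.7 CPM in the controls and 38.1 and 37.6 CPM after ablation. The Tapbpl groups did not overlap, and the log2 fold change of 0.27 (SE 0.08) had an adjusted p of 0.0286. This call was the least stable of the 5: the adjusted p was 0.101 without Treg-ablated replicate 1, 0.0683 without Treg-ablated replicate 2, 0.0743 without control replicate 1, 0.105 without control replicate 2, 0.089 in DESeq2 and 0.0859 with the replicate number as a block. Erap1 (ENSMUSG00000021583, chromosome 13, 74639872 to 74691875), the only peptidase of the endoplasmic reticulum among the 10, had 133.7, 125.3 and 123.0 CPM in the controls and 117.5 and 134.3 CPM after ablation. The controls lay between the 2 Treg-ablated libraries (log2 fold change -0.02, SE 0.08, adjusted p = 0.887), and here Treg-ablated replicate 1 was the lower of its pair. Of the 125-base windows of Erap1 transcripts in GENCODE M21, 12.4% also occur in transcripts of its neighbour Cast. In the annotation used for counting, no exon overlap of Erap1 with Cast was found.

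Psmb9, Tap1, Psmb8 and Tap2 lie side by side within the MHC class II region of chromosome 17. Of these 4, 3 rose, against 13.5% of all genes tested, and the calls of Psmb8 and Tap2 ended without control replicate 2. Psmb9 and Tap1 are transcribed away from each other, with 225 bases between their RefSeq starts (34187330 and 34187556, GRCm38.p6). The ratio of Psmb9 to Tap1 per kilobase of exon was 0.317, 0.369 and 0.351 in the controls and 0.546 and 0.470 after ablation, so both Treg-ablated libraries held more Psmb9 per Tap1 than any control; this ratio was not tested. In the annotation used for counting, 212 exon bases of Psmb9 and Tap1 overlap on opposite strands, 5.79% of the exon bases of Psmb9. The library kit kept the strand, but no strand option was recorded for the counting, so reads there cannot be told apart. Among the 20 other genes tested with a start within 250 kb of that of Tap1, 3 rose and 2 fell. Of all genes tested, 13.5% rose and 12.3% fell. Those that rose were H2-K2, Col11a2 and H2-K1, a class I heavy chain gene with a log2 fold change of 0.32 and an adjusted p of 0.0145, and those that fell were Vps52 and Slc39a7. H2-K1 lost its call without Treg-ablated replicate 1 (adjusted p = 0.081) and without control replicate 2 (0.0665). The class II genes on either side did not pass. H2-Ab1, an MHC class II chain gene 75.7 kb from the Tap1 start, had a log2 fold change of -0.25 (adjusted p = 0.145), and H2-DMb1, for a chain of a class II peptide editor, at -34.5 kb on the other side, one of -0.33 (adjusted p = 0.146). Vps52, Slc39a7, H2-K2, Col11a2, H2-Ab1 and H2-DMb1 were chosen after their values were seen.

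**Figure D4:**
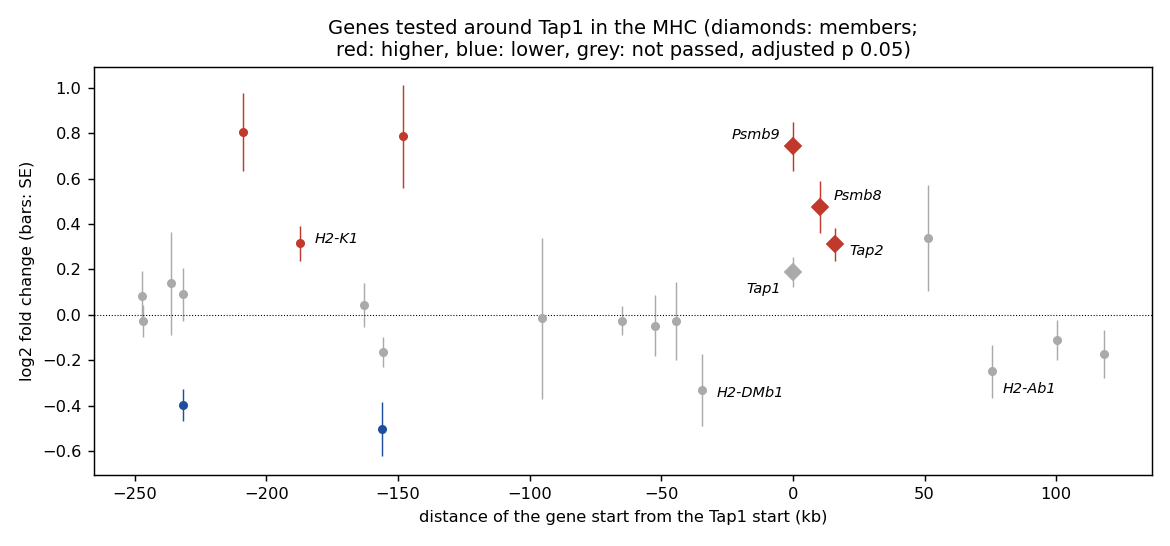
Log2 fold change (with SE) of every gene tested within 250 kb of the Tap1 start, against the distance of its own start in kb; diamonds are the listed immunoproteasome and transporter genes, red marks genes that passed as higher, blue as lower. Psmb9, Psmb8 and Tap2 stand at 0.74, 0.47 and 0.31, Tap1 at 0.19 did not pass, and the class II genes on both sides did not pass.

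The 10 genes differed widely in level. In CPM per kilobase of annotated exon, the mean over controls was 133.8 ± 6.60 (SD, n = 3) for Tapbp, 105.9 ± 6.64 for Psme1, 79.9 ± 5.97 for Psmb10, 31.7 ± 1.40 for Erap1 and 18.0 ± 0.55 for Tap1. Below these came Tap2 with 16.4 ± 0.70, Tapbpl with 13.3 ± 0.65, Psmb8 with 10.8 ± 1.14, Psme2 with 9.13 ± 0.20 and Psmb9 with 6.23 ± 0.65 CPM per kilobase. No 2 neighbours in this order overlapped among the control libraries, but the order depends on the length: with the longest coding transcript, Psme1 came before Tapbp and Tapbpl came last. That length is from GENCODE M21. For Erap1 and Psmb10 it exceeds the exon bases used for counting (5644 against 4014 and 1311 against 1270). By either length the 3 most abundant of the 10 genes, as counted, were Psme1, Tapbp and Psmb10, and 0 of these 3 passed the test. The place of Psme2 in the order is uncertain, since its copy Psme2b had a control mean of 189.4 CPM per kilobase. Which of these 2 genes the shared reads came from was not tested.

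Outside the 10 genes, the rest of the proteasome was mixed. Of 11 other 20S subunits 1 rose, Psma4 (log2 fold change 0.47, SE 0.08, adjusted p = 0.00293), and 10 did not pass, Psma3 (0.27, adjusted p = 0.072) and Psma1 (0.15, adjusted p = 0.173) among them, with a median log2 fold change of -0.005. Of 18 subunits of the 19S regulator, which unfolds tagged proteins for the barrel, 5 rose, 3 fell and 10 did not pass, with a median of 0.01. The smallest p among them were those of the ATPase genes Psmc6 (log2 fold change 0.35) and Psmc1 (0.32), which rose, and of the scaffold gene Psmd2 (-0.27), which fell (adjusted p = 0.00359, 0.0132 and 0.0133). The 19S counts varied with the control library left out. Without control replicate 1, 4 rose and 3 fell, without control replicate 2, 1 rose and 0 fell, and without control replicate 3, 5 rose and 1 fell. Of all genes tested, 11.7%, 5.62% and 11.7% were higher in these fits, against 13.5% with all libraries. With the replicate block 2 rose and 0 fell, and with the GC correction 3 rose. Psmc1 lost its call without Treg-ablated replicate 1 (adjusted p = 0.0893) and without control replicate 2 (0.0775), and Psmd2 with the block (0.135) and without replicate 2 of either the Treg-ablated (0.0597) or the control libraries (0.0658). Among 10 assembly factors and other regulators 8 were tested, 1 rose and 1 fell. Psmg2, a chaperone of 20S assembly, rose (0.40, adjusted p = 0.01), and Psme4, the activator PA200, fell (-0.30, adjusted p = 0.0372). Psme4 did not pass with libraries scaled by size alone (adjusted p = 0.057), without Treg-ablated replicate 1 (adjusted p = 0.226), control replicate 1 (0.0984) or control replicate 2 (0.106), and Psmg2 not without control replicate 2 (0.0614) or with the GC correction (0.0532). For Pomp, the assembly factor that favours the immunoproteasome, the log2 fold change was 0.23 (SE 0.08, adjusted p = 0.0597). Psme3, the nuclear PA28γ, had -0.16 (adjusted p = 0.103) and the inhibitor gene Psmf1 -0.16 (adjusted p = 0.158). Psmb11, the thymus-specific subunit, had at most 0.151 CPM in any library and was not tested.

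**Figure D5:**
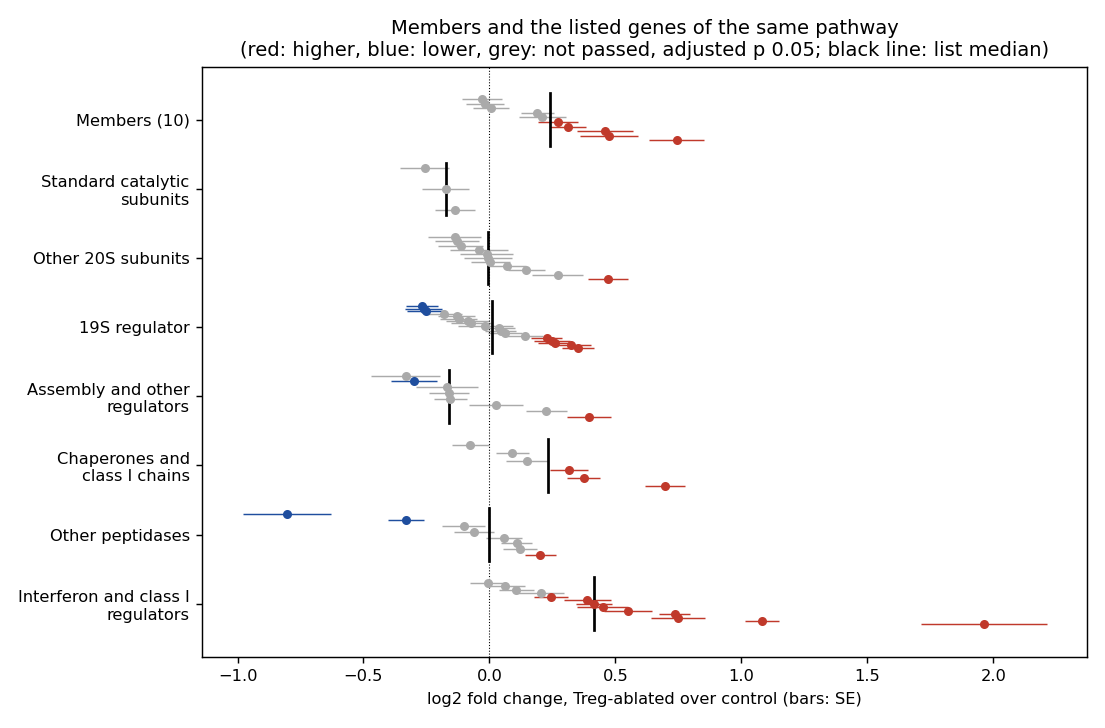
Log2 fold change (Treg-ablated over control, bars SE) of the 10 genes and of 7 lists of related genes, each dot a gene; red passed as higher, blue as lower, grey did not pass, and black lines are list medians. The 10 genes run from -0.03 to 0.74 with a median of 0.24, the standard catalytic subunits have a median of -0.17 with none called, and the interferon and class I regulators have the highest median, 0.41.

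In the loading complex, 3 of 6 further genes rose, against 13.5% of all genes tested, and 3 did not pass. B2m, the light chain of class I, rose 1.62-fold (log2 fold change 0.70, adjusted p = 0.000449). Pdia3, for ERp57, the disulfide isomerase that pairs with tapasin, had 778.7, 746.5 and 734.2 CPM in the controls and 983.2 and 968.4 CPM after ablation. The Pdia3 groups lay far apart relative to their spread (log2 fold change 0.37, SE 0.07, adjusted p = 0.00356). The lectin chaperones did not pass: Calr had a log2 fold change of -0.08 (adjusted p = 0.477) and Canx 0.09 (adjusted p = 0.343). Nor did the class I heavy chain gene H2-D1 (0.15, adjusted p = 0.211), named after its values were seen. Of 8 other peptidases 1 rose and 2 fell, against 13.5% and 12.3% of all genes tested. Lnpep, for the endosomal aminopeptidase IRAP, fell from 135.2, 115.1 and 99.2 CPM in the controls to 51.3 and 82.8 CPM (log2 fold change -0.80, SE 0.18, adjusted p = 0.00912). Thop1, for a cytosolic oligopeptidase that can destroy class I peptides, fell as well (-0.33, adjusted p = 0.00912), and Npepps, for the puromycin-sensitive aminopeptidase, rose (0.20, adjusted p = 0.0347). Npepps lost its call when any 1 library was left out (adjusted p between 0.0717 and 0.135), with the GC correction (0.225), in DESeq2 (0.0647), with the filter on 1 count (0.0824) and with the replicate block (0.25). Lnpep and Thop1 lost theirs without control replicate 2 (0.0515 and 0.0601), and Thop1 also with the replicate block (0.0612) and the GC correction (0.0531).

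Among 13 listed interferon and class I regulators, 9 rose, against 13.5% of all genes tested, and 4 did not pass. Their median log2 fold change was 0.41. Irf1, a transcription factor that interferon induces, rose 1.67-fold (adjusted p = 7.95e-05). Nlrc5, the transactivator of class I genes, rose from 75.2, 74.2 and 65.8 CPM to 94.7 and 115.9 CPM (log2 fold change 0.55, SE 0.09, adjusted p = 0.00292). Within the Treg-ablated pair Nlrc5 was higher in replicate 2, whereas Psmb8, Psmb9, Psmb10 and Psme2 were higher in replicate 1. Ifng itself had 0.751 to 0.836 CPM in the controls and 2.79 to 3.40 CPM after ablation (log2 fold change 1.96, SE 0.25, adjusted p = 0.000791). The 6 genes whose centred log2 CPM over the 5 libraries lay closest to the mean of the 10 genes, by Euclidean distance, were Iqcb1 (0.0169), Rab11a (0.0342), Pbk (0.0357), Tmem230 (0.04), Vim (0.0404) and Kdelr2 (0.041). For comparison, the distance of the 10 genes themselves from that mean ran from 0.0708 for Tap2 to 0.558 for Psmb9, so the mean describes Tap2, Tapbpl and Tap1 more closely than the immunosubunits.

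Marker genes of other cells moved in the same comparison. Of 12 T cell markers 11 rose, Lck the most abundant at 1.95 to 9.39 CPM, with a summed level of 14.7 to 19.1 CPM in the controls and 51.9 to 58.1 CPM after ablation. Of 8 cytotoxic and NK markers 6 rose, and the 8 summed to 21.6 to 25.2 CPM in the controls and 70.5 to 72.5 CPM after ablation. Gzmb was the most abundant of them, at 4.23 to 29.7 CPM. Ncr1 and Klrb1c overlapped between groups and did not pass (adjusted p = 0.555 and 0.325 in the same edgeR fit). Of 7 B cell markers tested 5 rose. All 8 B cell markers listed summed to 15.8 to 19.1 CPM in the controls and 56.4 to 71.4 CPM after ablation. The 12 macrophage markers went from 412.9 to 435.9 CPM to 225.2 to 267.8 CPM, with 9 lower and 0 higher; Lyz2 was the most abundant, at 99.0 to 204.6 CPM. The 8 pan-leukocyte markers summed to 252.4 to 263.5 CPM in the controls and 259.2 to 265.7 CPM after ablation, with 2 higher and 2 lower, and the adjusted p of Ptprc was 0.0655 at a log2 fold change of 0.32. The 8 dendritic cell markers, Clec9a the most abundant, lay at 52.2 to 54.7 CPM in the controls and 59.5 to 60.3 CPM after ablation. Of 12 fibroblast markers 6 fell and 1 rose. Together they summed to between 20470 and 24370 CPM in the controls and between 19320 and 21710 CPM after ablation. These sums overlapped between groups and were far above those of the macrophage markers. No marker was at 0 in all 5 libraries, and Ly6g, the neutrophil gene of the gate, stayed at or below 0.189 CPM. Neutrophil markers summed to 4.97 to 6.51 CPM in the controls and 7.32 to 9.65 CPM after ablation. Of the 2 neutrophil markers tested 1 rose, Retnlg (adjusted p = 0.0283 in the same edgeR fit). Endothelial markers summed to at most 14.6 CPM and epithelial markers to between 258.5 and 316.6 CPM. Of the 3 epithelial and 5 endothelial markers tested, 0 were called. The part of these cells in the changes of the 10 genes was not tested.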

How the data were processed

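RNA-seq counts of 5 libraries (2 Treg-ablated, 3 control) were used, grouped by sample title. The file names of the Treg-ablated libraries carry other numbers than the titles; replicate numbers here are those of the titles. The deposited values are raw whole-number counts per gene. Per the file headers, featureCounts 1.6.2 assigned paired reads to Ensembl 83 exons (GRCm38, a filtered set) with no strand or multi-mapping option set. Trimmomatic 0.33, Subread 1.6.2, FastQC 0.11.5 and DESeq2 1.16.1 appear in the submitters' processing notes.

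Ensembl identifiers gave a symbol for 46488 of 46983 genes. Genes were kept by filterByExpr (14580), scaled by TMM and tested with edgeR 4.0.16 (glmQLFTest, R 4.3.3) without a block, with Benjamini-Hochberg adjustment over all genes and a threshold of 0.05. An SE is the size of the log2 fold change over the root of its F statistic. Alternatives used DESeq2 1.42.0, limma 3.58.1, RLE factors, library size alone, filters of 1 or 10 counts, a fold of 1.5, the replicate block, a lowess offset on transcript GC content (span 0.3) and each library left out. The genes and lists were chosen with earlier results of these data known. Besides the 10 genes, the text names the standard subunits, the copy Psme2b, a fixed set of cofactors, the 3 genes of each related list with the smallest p, the 6 genes nearest in pattern (mean log2 CPM of at least 3, prior count 2, no predicted genes) and fixed markers. Libraries of a group differed beyond sampling noise (chi-square per degree of freedom of at least 4.19). One promoter motif search and 1 of the listed regulators are not reported here.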

Additional observations from a re-analysis of the deposited data

How the results depend on the processing

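The count of 5 genes higher of 10 stayed between 4 and 7 under RLE factors, library size alone, both other filters, DESeq2, limma-voom, the GC offset and the replicate block, but fell to 0 when tested against a fold of 1.5. With each library left out in turn it ran from 1 to 5, with 1 (Psmb9) without Treg-ablated replicate 1 and without control replicate 2, the deepest library; the cause was not tested. The GC offset gave 7, adding Psmb10 and Tap1, where 10.7% of all genes tested were higher. In the fits with every library kept and no fold threshold, between 8.03% and 14.7% of the genes tested were higher. None of the 10 was called lower in any of these fits. Over all genes, 1971 higher and 1787 lower became 98 and 23 against a fold of 1.5, 1296 and 1116 with the replicate block, and between 812 and 1687 higher and between 554 and 1538 lower with a library left out. Of the 69 related genes 67 were tested, and 20 were higher and 6 lower, against 13.5% and 12.3% of all genes tested. Tested against a fold of 1.5, these counts became 2 and 0. The replicate block gave 2 lower, and leaving out libraries gave 12 to 19 higher and 0 to 7 lower, with 12 and 0 without control replicate 2. The replicate block is no pairing known from the labels, and it ended the call of Tapbpl (adjusted p = 0.0859). Deviations of same-numbered libraries had correlations of -0.226 and -0.0213. Those of control replicate 3 with Treg-ablated replicates 1 and 2 were 0.199 and -0.199. With 2 Treg-ablated libraries the deviations from their mean mirror each other, so these correlations cannot decide whether libraries were paired. With the counts of Psme2 and Psme2b summed, chosen after seeing the data, the call of Psme2 ended. The subunit ratios kept their direction in all settings, with log2 differences of 0.75, 0.88 and 0.33 within the shared replicate numbers (block) for Psmb8/Psmb5, Psmb9/Psmb6 and Psmb10/Psmb7.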
